A study of Drosophila melanogaster with 17 samples.

Results

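The genes described here are dmondo, bigmax, sugarbabe and cbt (cabut), 4 transcription factor genes of the sugar-sensing network of the fly Drosophila melanogaster. They were chosen by name, as 4 of the 14659 gene rows in the deposited expression matrix, and all 4 are among the 2383 genes that passed the filter on low values, which asked for 1 FPKM or more on average. Messenger RNA was sequenced from fat bodies of female wandering larvae of the last instar kept on their diet from hatching; the fat body is the organ in which a larva keeps its reserves and does tasks of the mammalian liver and adipose tissue. Knockdown larvae on high sugar (0.7 M sucrose, 2 libraries) and on the control diet (0.15 M sucrose, 3 libraries) carried an RNA interference construct against ChREBP, UAS-ChREBPi(52606), together with cgGAL4 and UAS-Dcr2. ChREBP is the mammalian name of the gene that the matrix lists as dmondo, and 1 label calls these larvae mutants of that gene. Larvae labelled wild type, on high sugar (6 libraries) and on the control diet (6 libraries), were of the VDRC w1118 background and also carried cgGAL4 and UAS-Dcr2, so every group carries the driver and extra Dicer-2, and no control hairpin is named for the wild type. The driver cgGAL4 acts in the fat body and also in blood cells, and a single RNA interference line was used. The labels call the libraries biological replicates and do not say how many animals each holds.

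Mondo proteins are basic helix-loop-helix leucine zipper transcription factors that enter the nucleus and bind DNA when phosphorylated sugars build up in the cell. They bind DNA only with a partner of the same family, Mlx, which the fly gene bigmax encodes. Among the genes that fly Mondo and Mlx are known to activate are sugarbabe, which encodes a zinc finger protein of the Gli-like class known to promote lipogenic gene expression, and cabut, a zinc finger repressor of the Klf family that lowers expression of phosphoenolpyruvate carboxykinase and of the fat lipase brummer.

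Values are taken as FPKM, that is, fragments scaled to transcript length and to the number mapped, though the deposited matrix names no unit. They still fell with transcript length in every library, so levels of different genes can be set beside each other only roughly. Column totals ran between 29778.6 and 62263.5, the depth of the libraries is unknown, and all 4 genes are low, with group means under 3 FPKM. Replicates 1 to 3 of each group, 11 libraries with every knockdown library among them, share 1 barcode per group, and wild-type replicates 4 to 6 have a barcode each. These shared-barcode and own-barcode sets enter the fit as a term. The summed level of 7 fat body markers, all above 0 in every library, was 2370 to 2730 FPKM in knockdown larvae on high sugar, 6900 to 12200 FPKM in wild type on high sugar, 7800 to 9170 FPKM in knockdown larvae on the control diet, called control food as well, and 5270 to 9570 FPKM in wild type on control food. In the same order of groups, the sum of 16 midgut markers was 289 to 401, 2.55 to 133, 69.4 to 98.7 and 5.92 to 105 FPKM. The sum of 8 blood cell markers was 194 to 445, 23 to 62, 104 to 305 and 23.5 to 318 FPKM, and that of 10 salivary gland markers 6580 to 6800, 5.58 to 6050, 2130 to 4660 and 33.8 to 3650 FPKM. The knockdown libraries on high sugar therefore lie outside the range of the others by the fat body, midgut and salivary gland sums, while the blood cell sum overlaps. So do their sums of Malpighian tubule markers (6.71 to 8.55 FPKM), muscle markers (9.68 to 16.1 FPKM) and nervous system markers (11 to 11.3 FPKM). The log2 values of the knockdown libraries on high sugar also fell more steeply with transcript length, by 0.87 and 0.89 per doubling of length, against slopes of -0.54 to -0.05 in the other 15 libraries. Changes of the 4 genes that involve these libraries are therefore given also after each library's length trend was removed. The part of tissue composition in any result below was not tested, and fewer cells of a type and less RNA per cell cannot be told apart in these bulk samples.

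The target of the knockdown, dmondo, was far lower in knockdown fat bodies than in wild type on both diets, and higher on high sugar in wild type. In knockdown larvae on high sugar it stood at 0.286 and 0.187 FPKM. Wild-type larvae on high sugar had 2.15, 2.03 and 2.71 FPKM in the own-barcode set and 3.01, 2.78 and 2.41 FPKM in the shared-barcode set. Knockdown libraries on the control diet had 0.31, 0.535 and 0.471 FPKM, and the wild-type libraries 1.31, 1.26 and 1.1 FPKM in the own-barcode set and 1.6, 1.83 and 1.7 FPKM in the shared-barcode set. No library of 1 group reached into the range of any other group, and within each barcode set the wild-type libraries on the 2 diets were apart as well.

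**Figure D1:**
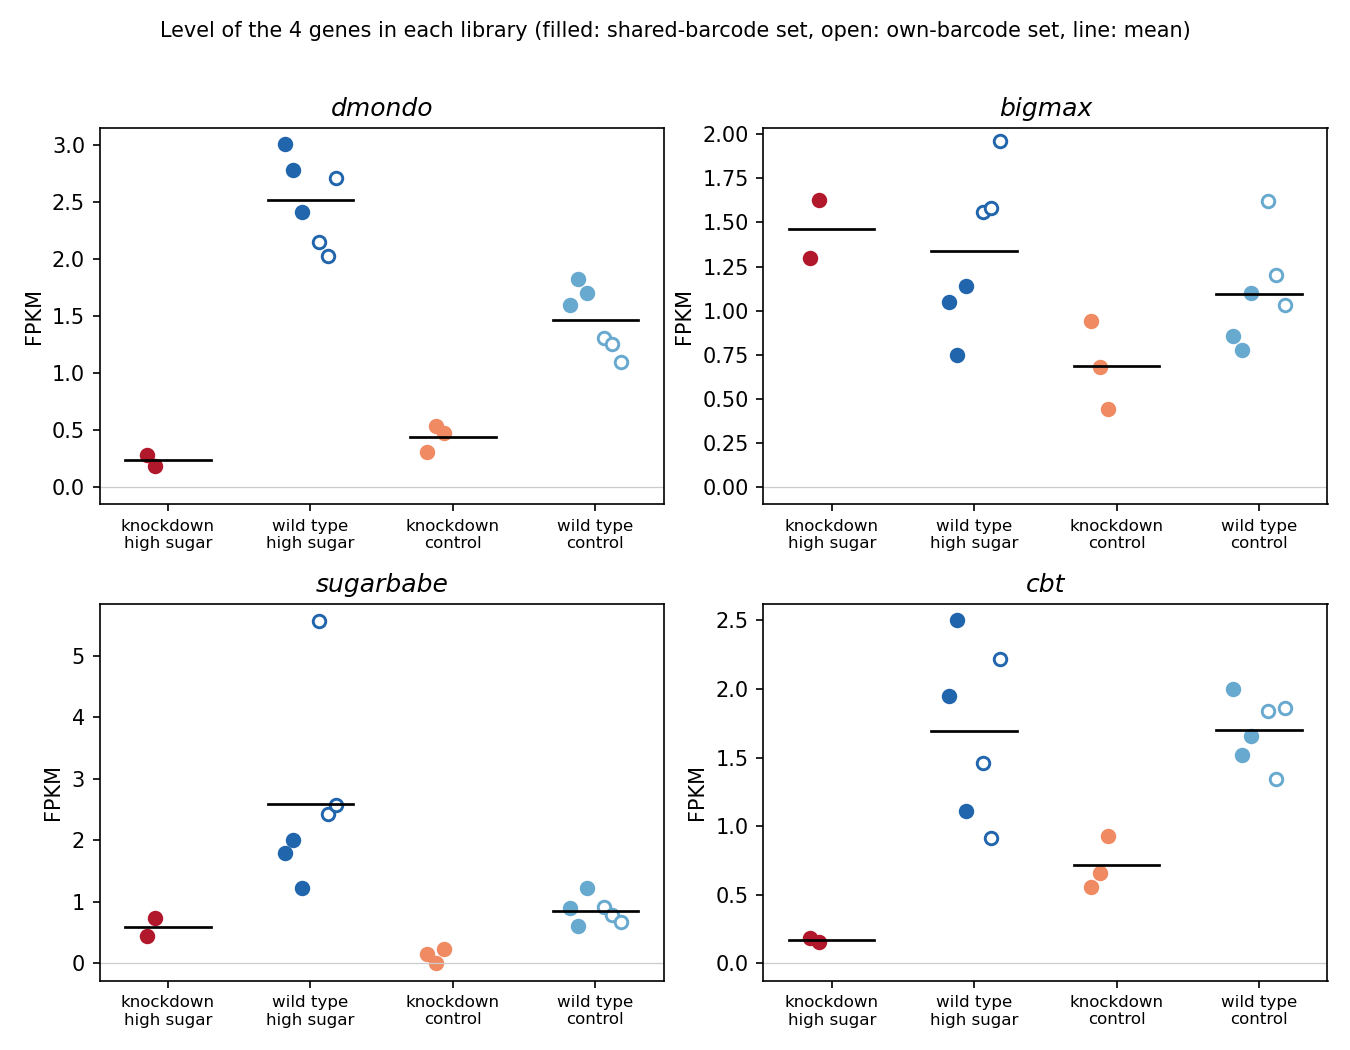
Level of dmondo, bigmax, sugarbabe and cbt in FPKM (vertical axes, each on its own scale) in the 17 libraries of 4 groups. Filled points are shared-barcode libraries, open points own-barcode libraries, and lines group means (none is drawn for sugarbabe in knockdown larvae on the control diet, where 1 library is listed at 0); dmondo is lower in every knockdown library than in any wild-type library, cbt and sugarbabe are lower than wild type on the same diet, and bigmax overlaps.

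Within the shared-barcode set, mean dmondo in knockdown larvae was 8.65% of wild type on high sugar and 25.7% of wild type on the control diet. The share on high sugar is rough. Multiplied by transcript length in kilobases, the 2 knockdown values give 1.162 and 0.762, where low genes pile up at 0.165 and 0.225. On the log2(FPKM + 1) scale, which understates changes of genes this low, dmondo fell by 1.62 ± 0.11 on high sugar (SE, limma, Benjamini-Hochberg adjusted p = 4.7e-08). On the control diet it fell by 0.89 ± 0.1 (limma, adjusted p = 2.3e-05). Of all 2383 tested genes 60.6% passed the adjusted p threshold of 0.05 in the comparison on high sugar, 27.2% upward and 33.4% downward. In it 3 of the 4 genes passed, all downward, and dmondo, the target itself, is among the 3. In the comparison on the control diet 5.62% passed, and 2 of the 4 genes did, dmondo and cbt. Dcr-2, the gene that UAS-Dcr2 carries, had 3.14 to 3.72 FPKM in knockdown larvae on high sugar, 14.1 to 26.6 FPKM in wild type on high sugar, 120 to 146 FPKM in knockdown larvae on the control diet and 50.3 to 81 FPKM in wild type on control food. Reads of the transgene and of the native gene cannot be told apart in this row, and whether the level of dmondo goes with that of Dcr-2 was not tested.

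High sugar raised dmondo in wild type 1.71 times, with a mean of 2.51 ± 0.385 FPKM on high sugar and 1.47 ± 0.283 FPKM on the control diet (SD, n = 6 each). The log2 change was 0.51 ± 0.07 (limma, adjusted p = 0.00037), and 15.5% of all tested genes passed in this comparison, 9.44% upward and 6.08% downward. It was 0.56 ± 0.1 within the own-barcode set (limma, adjusted p = 0.00074), where 33.4% of tested genes passed and 21.4% were higher, and 0.46 ± 0.1 within the shared-barcode set (limma, adjusted p = 0.013), where 6.38% passed, 4.7% of all tested genes downward and 1.68% upward. The difference between the sets was 0.1 ± 0.14 (limma, adjusted p = 0.65). The call within the shared-barcode set was lost without wild-type control-diet replicate 1 (0.43, limma, adjusted p = 0.054), high-sugar replicate 1 (0.41, limma, adjusted p = 0.054) or high-sugar replicate 2 (0.45, limma, adjusted p = 0.051).

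Within the knockdown, dmondo on high sugar was 53.9% of its level on the control diet, which did not pass (log2 change -0.22 ± 0.11, limma, adjusted p = 0.11; 60.3% of tested genes passed, 29.2% upward and 31.1% downward). The interaction, the diet change in knockdown minus that in wild type, was -0.73 ± 0.13 (limma, adjusted p = 0.00045), in a comparison where 51.8% of tested genes passed, 28.3% of all tested genes with a negative sign. Values within the knockdown on high sugar rest on 2 libraries whose long transcripts are low, and dmondo has 11 annotated transcripts with a median length of 4068 bases, against 1358 bases over the tested genes. With each library's length trend removed, dmondo on high sugar still fell, by 0.8 ± 0.13 (limma, adjusted p = 0.00016), but the diet change within the knockdown became 0.62 ± 0.14 (limma, adjusted p = 0.0016) and the interaction 0.12 ± 0.17 (limma, adjusted p = 0.59). The fall on the control diet was 0.91 ± 0.12 after the same step (limma, adjusted p = 0.00014).

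bigmax, which encodes the DNA-binding partner, did not pass in either comparison of knockdown with wild type. It had 1.3 and 1.63 FPKM in knockdown larvae on high sugar. In wild type on high sugar it had 1.56, 1.58 and 1.96 FPKM in the own-barcode set and 1.05, 0.748 and 1.14 FPKM in the shared-barcode set. Control-diet values of bigmax were 0.941, 0.68 and 0.445 FPKM in the knockdown, and in wild type 1.62, 1.2 and 1.03 FPKM in the own-barcode set and 0.854, 0.774 and 1.1 FPKM in the shared-barcode set. The whole groups overlap, except that both knockdown libraries on high sugar lie above all 3 on the control diet. By barcode set, those on high sugar also lie above the shared-barcode wild-type libraries on either diet. The 3 on the control diet lie below the own-barcode wild-type libraries on either diet.

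The log2 change of bigmax in knockdown against wild type was 0.27 ± 0.15 on high sugar (limma, adjusted p = 0.12; -0.1 ± 0.17 with the length trend removed, adjusted p = 0.64) and -0.13 ± 0.13 on the control diet (limma, adjusted p = 0.61). High sugar against control in wild type gave 0.15 ± 0.1 (limma, adjusted p = 0.33), with 0.25 ± 0.13 in the own-barcode set and 0.05 ± 0.13 in the shared-barcode set, neither of which passed (limma, adjusted p = 0.18 and 0.91). Within the knockdown, bigmax rose on high sugar by 0.55 ± 0.15 (limma, adjusted p = 0.0063), to a mean 2.13 times that on the control diet. That ratio is rough, as some control-diet values are near the smallest that these libraries hold. Multiplied by transcript length in kilobases, the 3 values give 0.898, 0.649 and 0.425, where low genes pile up at 0.225, 0.195 and 0.225. The call of this rise was lost without knockdown high-sugar replicate 2 (0.46, limma, adjusted p = 0.075) and with the length trend removed (0.27 ± 0.18, limma, adjusted p = 0.22). The interaction, 0.41 ± 0.18, did not pass (limma, adjusted p = 0.076), and was 0.05 ± 0.22 with the length trend removed (limma, adjusted p = 0.86). bigmax has 1 annotated transcript of 954 bases, and its exons share 83 bases with CG3368 on the opposite strand, which lay between 0.0796 and 0.275 FPKM in all libraries.

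**Figure D2:**
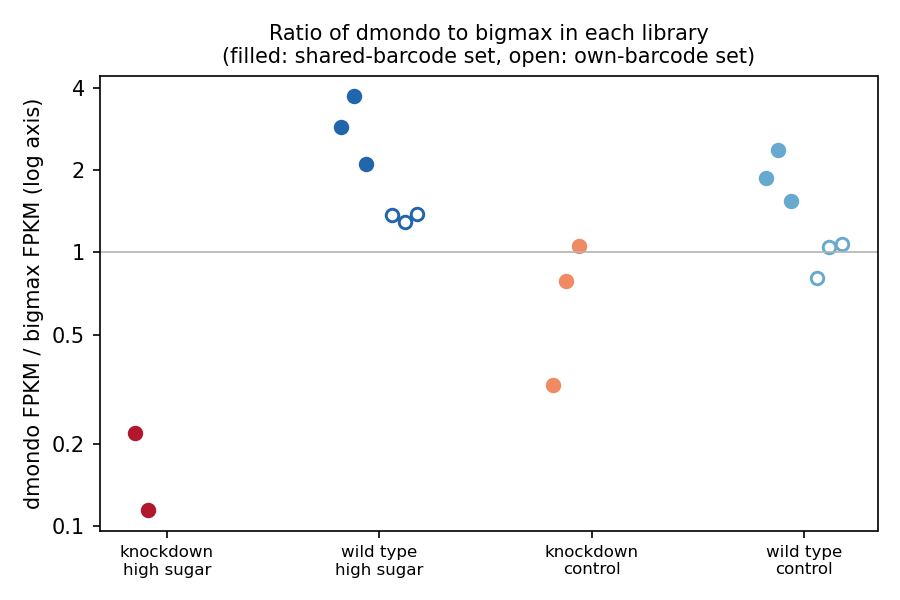
Ratio of dmondo FPKM to bigmax FPKM (vertical log axis) in each of the 17 libraries, by group, with shared-barcode libraries filled and own-barcode libraries open. The ratio is 0.115 and 0.22 in knockdown larvae on high sugar and 1.29 to 3.71 in wild type on high sugar.

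The ratio of dmondo to bigmax, the levels per length of the partners of the heterodimer, was 0.115 and 0.22 in knockdown larvae on high sugar and 1.29 to 3.71 in wild type on high sugar. On the control diet it was 0.329 to 1.06 in the knockdown and 0.807 to 2.36 in wild type. In wild type the ratio was 1.29 to 1.38 in the own-barcode set and 2.11 to 3.71 in the shared-barcode set on high sugar, and 0.807 to 1.07 in the own-barcode set and 1.54 to 2.36 in the shared-barcode set on the control diet. The wild-type libraries of the own-barcode set are thus below those of the shared-barcode set on both diets, and the shared-barcode ones lie above the knockdown on either diet. The transcripts differ in length, and the length trend differs between libraries. On high sugar the wild-type slopes were -0.15 to -0.06 in the own-barcode set and -0.43 to -0.33 in the shared-barcode set. On the control diet they were -0.23 to -0.05 and -0.54 to -0.36. Neither the ratio nor the part of length in it was tested.

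sugarbabe rose on high sugar in wild type and was lower in knockdown larvae. It had 0.448 and 0.738 FPKM in knockdown larvae on high sugar. In wild type on high sugar it had 5.56, 2.43 and 2.57 FPKM in the own-barcode set and 1.79, 2.01 and 1.23 FPKM in the shared-barcode set. Own-barcode replicate 4 is far above the other wild-type libraries on high sugar. Knockdown libraries on the control diet had 0.151 FPKM, a listed 0 and 0.234 FPKM. In wild type on control food sugarbabe had 0.917, 0.779 and 0.676 FPKM in the own-barcode set and 0.893, 0.613 and 1.23 FPKM in the shared-barcode set. Knockdown and wild type do not overlap on either diet, and the wild-type diets share only the value 1.23.

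The rise on high sugar in wild type was 0.88 ± 0.18 on the log2 scale (limma, adjusted p = 0.0049), 3.05 times by the means. Without own-barcode replicate 4 it was 0.7 ± 0.13 (limma, adjusted p = 0.004). By barcode set it was 1.27 ± 0.21 in the own-barcode set (limma, adjusted p = 0.00045) and 0.49 ± 0.21 in the shared-barcode set, which did not pass (limma, adjusted p = 0.22). The difference between the sets, 0.79 ± 0.3, did not pass either (limma, adjusted p = 0.083; 19.8% of tested genes passed, 13.7% with a positive and 6.17% with a negative sign), but it did without wild-type high-sugar replicate 5 (0.95, limma, adjusted p = 0.048) and was 0.48 without replicate 4 (limma, adjusted p = 0.17).

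**Figure D3:**
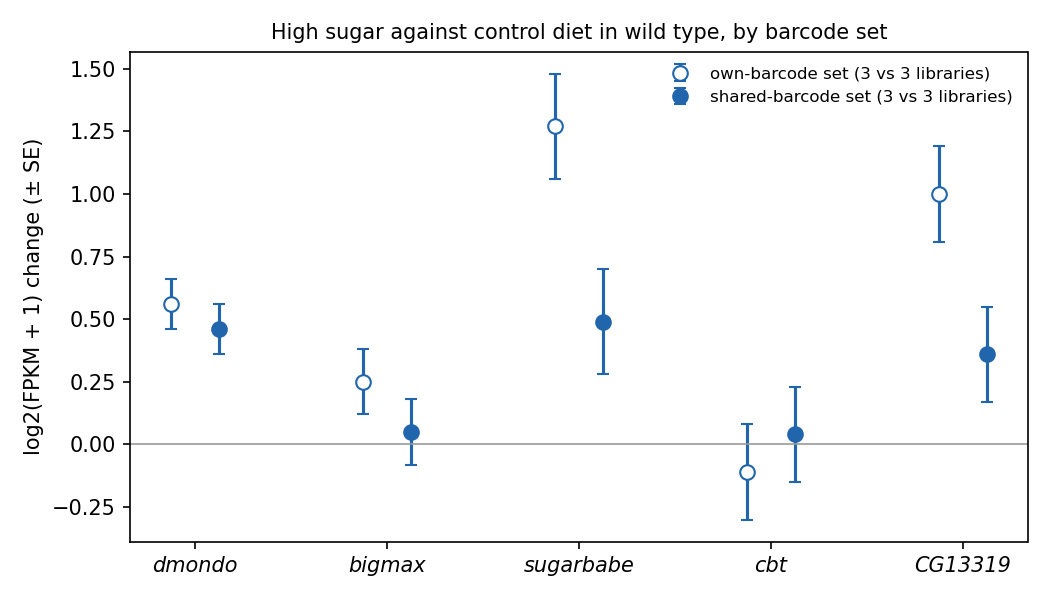
Log2(FPKM + 1) change ± SE (vertical axis) of the 4 genes and of CG13319 on high sugar against the control diet in wild type, in the own-barcode set (open) and in the shared-barcode set (filled), 3 libraries a diet in each. sugarbabe changed by 1.27 in the own-barcode set and 0.49 in the shared-barcode set, dmondo by 0.56 and 0.46.

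In the knockdown on high sugar, sugarbabe fell by 0.94 ± 0.27 against wild type (limma, adjusted p = 0.0074), to 35.4% of the wild-type mean within the shared-barcode set. That share is rough. Multiplied by transcript length in kilobases, the 2 knockdown values give 0.63 and 1.037, where low genes pile up at 0.165 and 0.225. With the length trend removed sugarbabe fell by 0.83 ± 0.26 (limma, adjusted p = 0.013), and the call was lost without knockdown high-sugar replicate 1 (-0.81, limma, adjusted p = 0.073). On the control diet the change was -0.56 ± 0.24 and did not pass (limma, adjusted p = 0.21), although no knockdown library reached the wild-type range. Among the shared-barcode libraries alone it was -0.75 ± 0.16 and passed (limma, adjusted p = 0.022), as it did without wild-type high-sugar replicate 4 (-0.65, limma, adjusted p = 0.032). With a pseudocount of 0.1 in place of 1 it was -2 ± 0.45 (limma, adjusted p = 0.015). But the 2 knockdown control-diet values above 0 are close to the smallest that these libraries hold. Multiplied by transcript length in kilobases they give 0.212 and 0.329, where low genes of each of those libraries pile up at 0.225. Setting values beside these pile-ups was chosen after the data were seen.

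sugarbabe was higher on high sugar in the knockdown too, in both libraries against all 3 on the control diet, by 0.5 ± 0.28, which did not pass (limma, adjusted p = 0.14; 0.52 ± 0.27 with the length trend removed, adjusted p = 0.11). The interaction was -0.38 ± 0.34 (limma, adjusted p = 0.36; -0.33 ± 0.32 with the length trend removed, adjusted p = 0.42). Restricted to the shared-barcode libraries the diet change in the knockdown was 0.5 ± 0.18 and passed (limma, adjusted p = 0.033), and the interaction was 0.01 ± 0.24 (limma, adjusted p = 0.97). The diet change in the knockdown also passed without wild-type high-sugar replicate 4 (0.5, limma, adjusted p = 0.037). The diet change of sugarbabe was thus not shown to differ between knockdown and wild type.

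The exons of sugarbabe share 98 bases with those of CG13319, an uncharacterized gene on the same strand of chromosome arm 2R, so reads can be split between the rows in ways the deposited values do not show. CG13319 had 1.11 and 1.56 FPKM in knockdown larvae on high sugar, against 1.42 to 4.89 FPKM in wild type on high sugar, and 0.537 to 0.845 FPKM in knockdown larvae on the control diet, against 0.886 to 1.48 FPKM in wild type. It rose on high sugar in wild type by 0.68 ± 0.16 (limma, adjusted p = 0.0088), with 1 ± 0.19 in the own-barcode set (limma, adjusted p = 0.0012) and 0.36 ± 0.19 in the shared-barcode set (limma, adjusted p = 0.32). Its change in the knockdown did not pass on high sugar (-0.4 ± 0.23, limma, adjusted p = 0.15) or on the control diet (-0.17 ± 0.21, limma, adjusted p = 0.71).

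cbt was lower in the knockdown on both diets and was not shown to respond to the diet in wild type. It had 0.182 and 0.158 FPKM in knockdown larvae on high sugar. In wild type on high sugar cbt had 1.46, 0.91 and 2.22 FPKM in the own-barcode set and 1.95, 2.5 and 1.11 FPKM in the shared-barcode set. Knockdown libraries on the control diet had 0.555, 0.659 and 0.93 FPKM. Wild type on control food had 1.84, 1.34 and 1.86 FPKM in the own-barcode set and 2, 1.52 and 1.66 FPKM in the shared-barcode set. The knockdown libraries on each diet lie below every wild-type library on that diet, and those on high sugar lie below those on the control diet.

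On high sugar cbt fell by 1.22 ± 0.2 in the knockdown (limma, adjusted p = 0.00012), to 9.17% of the wild-type mean in the shared-barcode set, and by 0.82 ± 0.21 with the length trend removed (limma, adjusted p = 0.0048). The 2 knockdown values there are near the smallest that these libraries hold, so the percentage is rough. Multiplied by transcript length in kilobases they give 0.43 and 0.372, where low genes pile up at 0.165 and 0.225. On the control diet cbt fell by 0.71 ± 0.18 (limma, adjusted p = 0.03), to 41.4% of the wild-type mean on that diet in the shared-barcode set. The second call sits at the threshold. It was lost without wild-type control-diet replicate 1 (-0.67, limma, adjusted p = 0.071) or 3 (-0.73, limma, adjusted p = 0.054), without knockdown control-diet replicate 1 (-0.64, limma, adjusted p = 0.083) or 2 (-0.69, limma, adjusted p = 0.085), and among the shared-barcode libraries alone (-0.67 ± 0.17, limma, adjusted p = 0.051).

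In wild type the diet change of cbt was -0.04 ± 0.14 (limma, adjusted p = 0.89), with means of 1.69 ± 0.634 FPKM on high sugar and 1.7 ± 0.244 FPKM on control food (SD, n = 6 each). It was -0.11 ± 0.19 in the own-barcode set and 0.04 ± 0.19 in the shared-barcode set (limma, adjusted p = 0.71 and 0.94). Within the knockdown cbt fell on high sugar by 0.55 ± 0.21 (limma, adjusted p = 0.038), to 23.8% of its mean on the control diet, a share that rests on the same near-smallest values. That call was lost without knockdown control-diet replicate 2 (-0.57, limma, adjusted p = 0.061) or 3 (-0.46, limma, adjusted p = 0.11), without knockdown high-sugar replicate 1 (-0.56, limma, adjusted p = 0.11) or 2 (-0.53, limma, adjusted p = 0.14), and with the length trend removed (-0.19 ± 0.23, limma, adjusted p = 0.5). The interaction of -0.51 ± 0.25 did not pass (limma, adjusted p = 0.11) but did without wild-type high-sugar replicate 3 (-0.59, limma, adjusted p = 0.049) or 5 (-0.6, limma, adjusted p = 0.04). With the length trend removed it was -0.09 ± 0.27 (limma, adjusted p = 0.8). cbt has 3 annotated transcripts with a median length of 2361 bases on chromosome arm 2L and lies, on the other strand, inside the span of ush with no shared exon base. ush averaged 0.0307 FPKM in knockdown larvae on high sugar, with 1 library listed at 0, and 0.26 FPKM in wild type on high sugar.

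**Figure D4:**
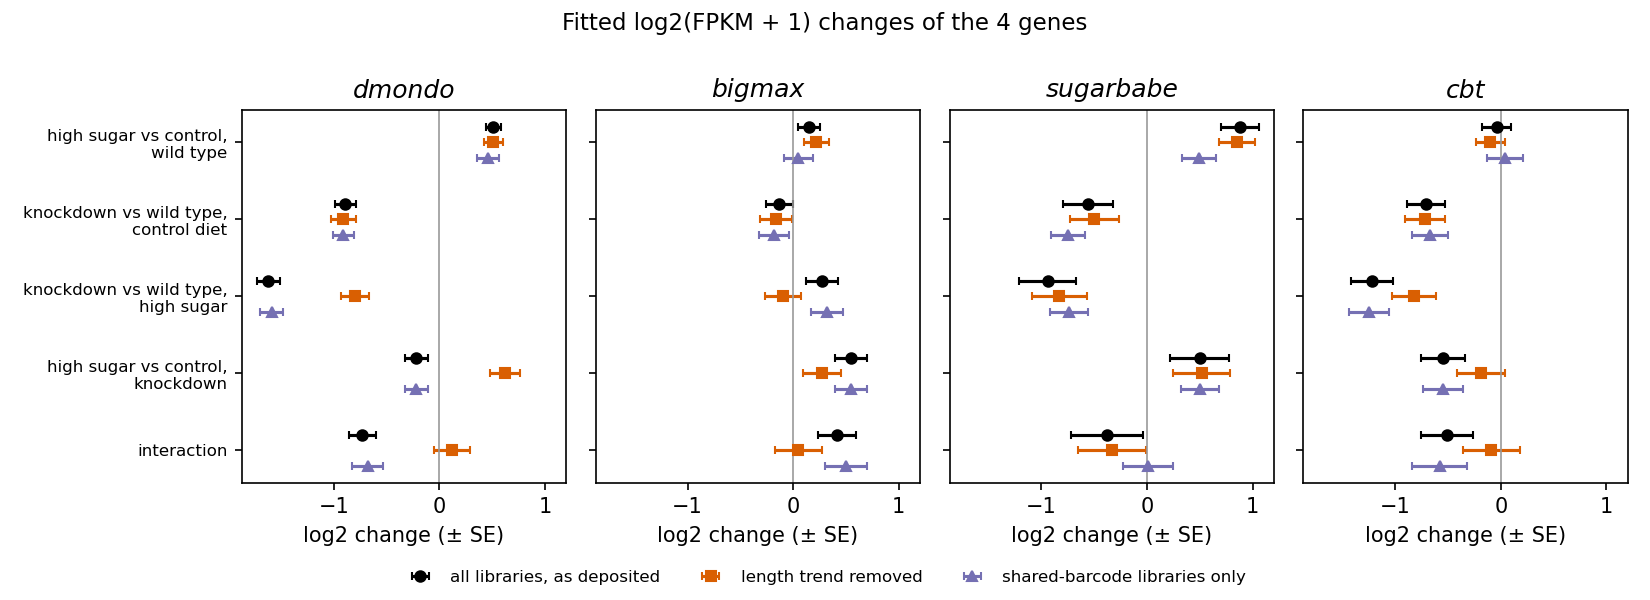
Log2(FPKM + 1) change ± SE (horizontal axes) of the 4 genes in the 4 pairwise comparisons and the interaction (rows), from all libraries as deposited (circles), with each library's length trend removed (squares) and from the 11 shared-barcode libraries alone (triangles). With the length trend removed the fall of dmondo on high sugar is 0.8 in place of 1.62 and its interaction 0.12 in place of -0.73.

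The order of the 4 levels, which are per length, differed between the groups. In knockdown larvae on high sugar the order was bigmax (1.47 ± 0.235 FPKM), sugarbabe (0.593 ± 0.205), dmondo (0.236 ± 0.0696) and cbt (0.17 ± 0.0175; SD, n = 2 each), with no overlap between neighbours. These are the libraries with the steepest length trend. Values fell with length in every library, so the order in each group sets transcripts of different length side by side. In wild type on high sugar it was sugarbabe (2.6 ± 1.53 FPKM), dmondo (2.51 ± 0.385), cbt (1.69 ± 0.634) and bigmax (1.34 ± 0.44; SD, n = 6 each), and each gene's range overlapped that of the next. In knockdown larvae on the control diet the order was cbt (0.714 ± 0.193 FPKM), bigmax (0.689 ± 0.248), dmondo (0.439 ± 0.116; SD, n = 3 each) and sugarbabe, and only the last step, to sugarbabe, had no overlap. In wild type on control food it was cbt (1.7 ± 0.244 FPKM), dmondo (1.47 ± 0.283), bigmax (1.1 ± 0.303) and sugarbabe (0.852 ± 0.221; SD, n = 6 each), again with overlap at each step. The place of sugarbabe in wild type depends on the libraries. By medians on high sugar sugarbabe had 2.22 FPKM and dmondo 2.56 FPKM, and within the shared-barcode set the means were 1.68 FPKM for sugarbabe and 2.73 FPKM for dmondo. The mean of sugarbabe over all 6 libraries includes the 5.56 FPKM of replicate 4. On the control diet the shared-barcode means of sugarbabe and bigmax were 0.913 and 0.91 FPKM.

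Likeness of pattern was measured as Pearson's r of log2(FPKM + 1) over the 17 libraries, and over the 11 shared-barcode libraries in brackets. These points share libraries, barcode sets and length trends, so the values describe and do not test. Among the 5 tested genes most like dmondo were CG5261 at 0.91 (0.95), Acon at 0.9 (0.91), Odc1 at 0.89 (0.92) and CG32795 at 0.89 (0.89). CG5261 is now named muc, the acetyltransferase of pyruvate dehydrogenase, Acon is the mitochondrial aconitase and Odc1 ornithine decarboxylase. For sugarbabe they were CG34455 at 0.94 (0.93), CG13607 at 0.93 (0.92), CG9527 at 0.92 (0.87), Ance-4 at 0.91 (0.83) and the overlapping CG13319 at 0.9 (0.94). CG34455 is now named Pdxk, a pyridoxal kinase, and CG9527 Acox3, an acyl-CoA oxidase.

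The genes most like cbt were CG2246 at 0.85 (0.86), CG13784 at 0.84 (0.93), Adh, the alcohol dehydrogenase, at 0.83 (0.89), Msr-110 at 0.83 (0.92) and dmondo itself at 0.82 (0.89). bigmax went with other genes: CG13349, the proteasome subunit Rpn13, at 0.97 (0.97), cathD, a lysosomal protease, at 0.94 (0.96), and the ribosomal protein genes sta at 0.93 (0.95), RpL4 at 0.93 (0.93) and RpL13 at 0.93 (0.93). Between the 4 genes themselves, r was 0.82 (0.89) for dmondo with cbt, 0.75 (0.82) for dmondo with sugarbabe, 0.48 (0.67) for sugarbabe with cbt and 0.56 (0.28) for bigmax with sugarbabe. It was 0.19 (-0.14) for bigmax with dmondo and -0.04 (-0.43) for bigmax with cbt. The groups differ in dmondo by design, and these values are not independent of it.

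Of the 5 genes of the Myc, Max, Mondo and Mlx family, 3 passed the filter: dmondo, bigmax and Mnt, a repressor that competes with Myc for Max. Max, the common partner, averaged 0.464 ± 0.165 FPKM in knockdown larvae on high sugar (n = 2), 0.869 ± 0.318 FPKM in wild type on high sugar (n = 6), 0.987 ± 0.0759 FPKM in knockdown larvae on the control diet (n = 3) and 1.05 ± 0.394 FPKM in wild type on control food (SD, n = 6). dm, which encodes Myc, averaged 0.35 to 0.515 FPKM over the 4 groups. Mnt fell by 0.84 ± 0.21 in the knockdown on high sugar (limma, adjusted p = 0.0034), where it had 0.287 and 0.479 FPKM against 0.216 to 2.26 FPKM in wild type, ranges that overlap. Its change on the control diet was -0.15 ± 0.19 (limma, adjusted p = 0.71). With the length trend removed, 1 of the 3, the knockdown target dmondo, was lower in the knockdown on high sugar by the test. In that fit 1234 of 2298 tested genes passed in either direction.

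Among 9 measured regulators, hormones and enzymes linked to Mondo and Mlx or to sugar sensing (of 10 listed, with sugarbabe and cbt among them), none was higher and 6 were lower in the knockdown on high sugar, with a median log2 change of -0.94 against -0.08 over all tested genes, 33.4% of which were lower. Of the other 4, Ilp6, an insulin-like peptide made by the fat body, fell by 2.73 ± 0.19 (limma, adjusted p = 1.1e-07), with 1.85 and 2.01 FPKM in the knockdown and 11.3 to 20.6 FPKM in wild type. CG8317, now Lst, the peptide hormone Limostatin, fell by 1.99 ± 0.25 (limma, adjusted p = 1.2e-05). daw, which encodes the activin-like hormone Dawdle, fell by 1.31 ± 0.21 (limma, adjusted p = 7.4e-05), with 0.726 and 0.727 FPKM in the knockdown and 2.44 to 5.21 FPKM in wild type. The repressor gene hairy fell by 0.77 ± 0.22 (limma, adjusted p = 0.006). After removal of the length trend 1 of the 9 was higher and 5 were lower, in a fit where 1234 of 2298 tested genes passed in either direction.

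On the control diet only cbt of these 9 passed, downward, in a comparison where 2.6% of tested genes were lower, and the median of the 9 was -0.33 against -0.03 over all genes. Ilp6 there was 15.4 to 22.6 FPKM in the knockdown and 13.9 to 27.3 FPKM in wild type. High sugar in wild type raised 3 of the 9, which were sugarbabe, CG14375, the hormone gene CCHa2, by 1.05 ± 0.18 (limma, adjusted p = 0.0016), and daw by 0.44 ± 0.14 (limma, adjusted p = 0.043), and lowered none, with a median of -0.04 against 0.02. Over all tested genes 9.44% were higher and 6.08% lower there. None of the 9 passed for diet in wild type in the fit of the shared-barcode libraries alone, where 83 of all 2383 tested genes passed. In the fit of all libraries with separate means by group and set, CG8317 passed in both sets and in opposite directions, by 0.43 ± 0.14 in the own-barcode set (limma, adjusted p = 0.032) and -0.6 ± 0.14 in the shared-barcode set (limma, adjusted p = 0.02), a difference of 1.04 ± 0.2 (limma, adjusted p = 0.0036). CG14375 rose on high sugar in the knockdown as well, by 1.73 ± 0.28 (limma, adjusted p = 0.00011), with 7.39 and 8.45 FPKM on high sugar and 1.08 to 2.49 FPKM on the control diet. HLH106, the fly SREBP, a regulator of lipid synthesis, fell on high sugar in the knockdown by 0.45 ± 0.09 (limma, adjusted p = 0.00059).

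**Figure D5:**
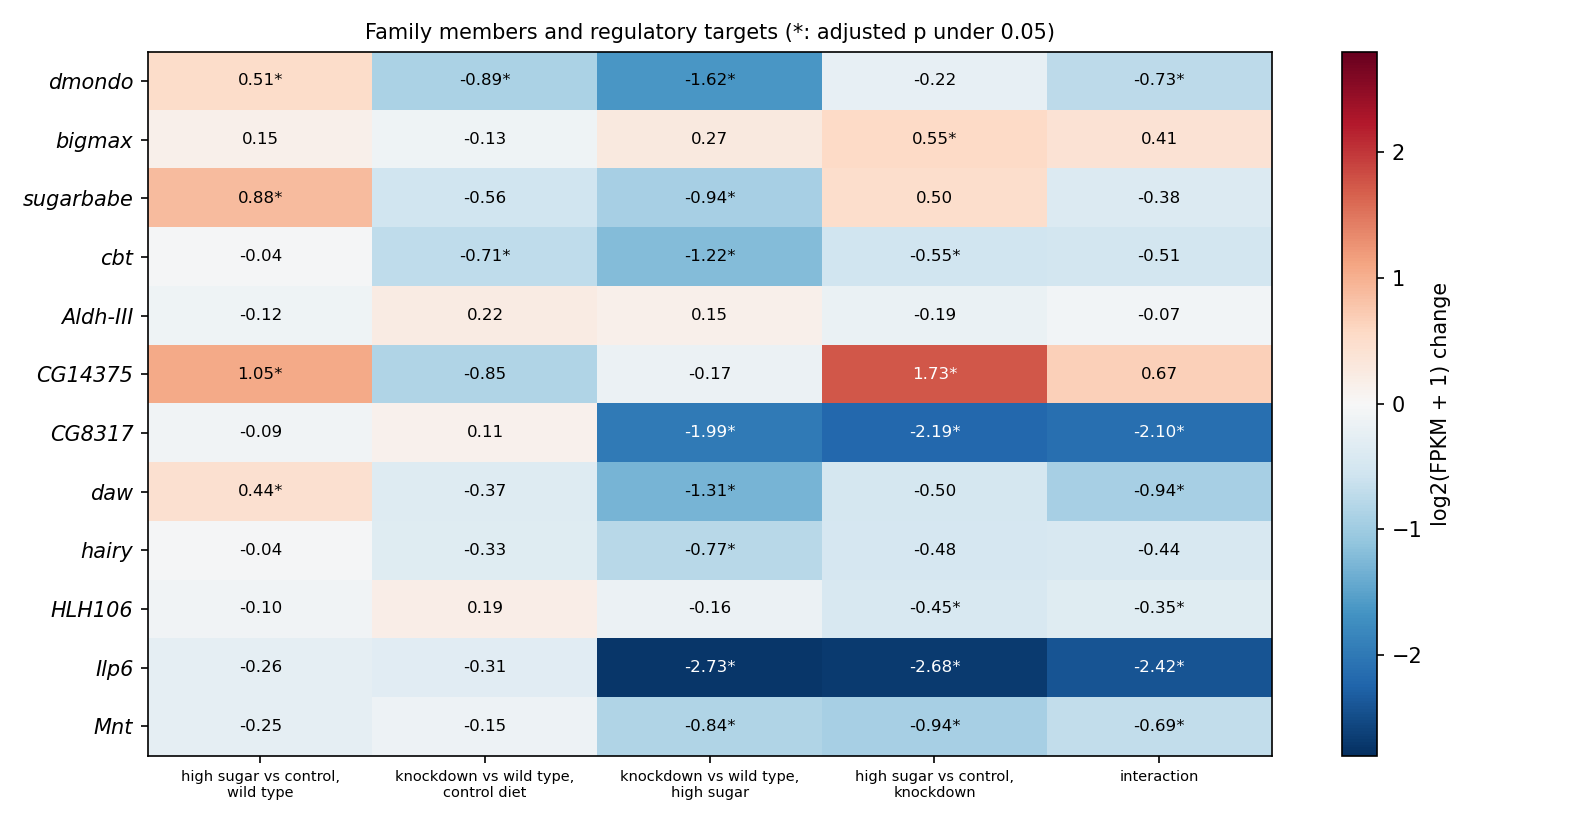
Log2(FPKM + 1) changes (colour and printed value) of the 4 genes, then of the other measured family members and regulatory genes (rows), in the 4 pairwise comparisons and the interaction (columns), with an asterisk where the adjusted p is under 0.05. In the column for knockdown against wild type on high sugar 8 of the 12 genes are lower by the test and none is higher, against 33.4% lower and 27.2% higher over all tested genes. The 8 include dmondo, the target of the knockdown, and the genes were chosen with earlier results of these data known. With the length trend removed 6 are lower, dmondo among them, and 1 is higher, in a fit where 1234 of 2298 tested genes pass in either direction.

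Of 5 genes known to be repressed by cabut or used in gluconeogenesis, all measured, 2 were higher and none lower in the knockdown on the control diet, where 3.02% of tested genes were higher, with a median of 0.73 against -0.03. These were Pepck, phosphoenolpyruvate carboxykinase, by 1.43 ± 0.24 (limma, adjusted p = 0.0017) and bmm, the fat lipase Brummer, by 1.1 ± 0.15 (limma, adjusted p = 0.00022). Pepck had 38 to 54.4 FPKM in the knockdown and 18.1 to 42.1 FPKM in wild type, and bmm 5.58 to 8.21 FPKM in the knockdown and 1.62 to 3.09 FPKM in wild type. On high sugar none was higher and 2 were lower in the knockdown, where 27.2% of all tested genes were higher and 33.4% lower, so the count is near the share over all genes. The 2 were bmm by 1.23 ± 0.17 (limma, adjusted p = 2.1e-05) and CG1516, pyruvate carboxylase, by 0.81 ± 0.33 (limma, adjusted p = 0.045). The log2 difference of Pepck was 0.38 ± 0.27 and did not pass (limma, adjusted p = 0.24). With the length trend removed, as among the shared-barcode libraries alone, 2 of these 5 were higher and 1 was lower in the knockdown on high sugar. Of all tested genes 1234 of 2298 passed in the first of these fits and 1443 of 2383 in the second, in either direction. Pepck also rose on high sugar in wild type, by 1.08 ± 0.18 (limma, adjusted p = 0.0014), together with CG1516 and CG10924, where 9.44% of tested genes were higher. None of the 5 passed for diet in wild type among the shared-barcode libraries alone, where 83 of all 2383 tested genes passed.

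The metabolic genes downstream of the network were followed as 5 lists. On high sugar in wild type 4 of 6 measured fatty acid synthesis genes, 3 of 5 triglyceride synthesis genes, 5 of 10 glycolysis genes, 3 of 5 pentose phosphate genes and 1 of 5 serine and glycine synthesis genes rose, against 9.44% of all tested genes. In these lists 1 gene fell, CG3011, serine hydroxymethyltransferase, by 0.79 (limma, adjusted p = 0.016). The medians were 0.71, 0.55, 0.48, 0.55 and -0.05, against 0.02 over all genes. Examples are Gpdh, glycerol-3-phosphate dehydrogenase, by 1.8 ± 0.19 (limma, adjusted p = 3.3e-05), AcCoAS, acetyl-CoA synthetase, by 1.1 ± 0.15 (limma, adjusted p = 0.00025) and PyK, pyruvate kinase, by 0.49 ± 0.08 (limma, adjusted p = 0.00092). Among the shared-barcode libraries alone the counts that rose were 1, 1, 0, 0 and 0. Of all 2383 tested genes 83 passed there in either direction, against 370 in the fit of all libraries.

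In the knockdown on the control diet, where 3.02% of all tested genes were higher and 2.6% lower, none of these genes was higher and 2 were lower, PyK by 0.44 ± 0.1 (limma, adjusted p = 0.017) and CG6287, phosphoglycerate dehydrogenase, by 0.9 ± 0.22 (limma, adjusted p = 0.022). The list medians were -0.08, -0.13, -0.31, -0.14 and -0.35, in the order above, against -0.03 over all genes. In the knockdown on high sugar, where 27.2% of all tested genes were higher and 33.4% lower, triglyceride synthesis had a larger share of lower genes than the whole, and the other lists had a share of called genes at or below the 60.6% of all genes. Of the triglyceride synthesis genes 4 of 5 were lower and none higher (median -1.03 against -0.08 over all genes), with Lsd-2 by 1.68 ± 0.21 (limma, adjusted p = 9.6e-06) and Lsd-1 by 1.56 ± 0.28 (limma, adjusted p = 0.00025), both lipid droplet coat proteins. Of the fatty acid synthesis genes 1 was lower, CG3523, fatty acid synthase, by 1.33 ± 0.28 (limma, adjusted p = 0.00082), and 1 higher, Men, malic enzyme, by 1.39 ± 0.28 (limma, adjusted p = 0.00063). Glycolysis had 1 gene higher and 2 lower, the pentose phosphate pathway 2 higher and 1 lower, and serine and glycine synthesis 1 higher and 1 lower. With the length trend removed, triglyceride synthesis still had 4 lower and none higher (median -0.82), while fatty acid synthesis had 1 higher and none lower, so that the call of CG3523 was lost, and the pentose phosphate pathway 2 higher and none lower. The counts for glycolysis, 1 higher and 2 lower, and for serine and glycine synthesis, 1 higher and 1 lower, did not move. Over all genes 1234 of 2298 passed in that fit, in either direction.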

How the data were processed

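Per the submitters' processing notes, reads were handled with Bowtie 0.12.7, TopHat 1.3.2 and Cufflinks 1.1.0 on build dm3. The annotation and options are not given in the sources used here. The deposited matrix names no unit, and FPKM, the unit Cufflinks writes, is assumed here; the authors may have scaled the values further. The deposited FPKM values hold no counts, so depth is unknown and no counting interval is given. Steps in low values gave relative depth only, not whole reads.

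Values were transformed as log2(FPKM + 1). The 2383 genes averaging 1 FPKM or more were fitted together with limma 3.58.1 in R 4.3.3, with 4 groups and the barcode set as a term, trended robust variances, 2-sided tests and Benjamini-Hochberg adjustment per comparison over all tested genes at 0.05. Effects within a barcode set come from a model in which each combination of group and set has its own mean. The set term in knockdown comparisons rests on wild type. The script was tested on simulated data. Transcript length (2298 tested genes, 96.4%) was the median of the annotated transcripts in the BDGP6 annotation, whose build differs from dm3, so no coordinates are printed; each library's trend was taken out with a loess curve (span 0.5). Alternatives were other pseudocounts, filters, scalings, designs and library sets, an exact permutation test and leaving out each library.

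The genes, lists and markers were chosen with earlier results of these data known. Named are the 4 genes, the 5 tested genes most like each (1 of those for dmondo is not reported here), and, of each list, at most 4 genes ranked by p in a comparison; CG3368, ush, Max, dm and some values of listed genes were added for context. Of 69 list members 50 were measured. Promoter motifs were not searched.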

Additional observations from a re-analysis of the deposited data

Results flagged for a closer look

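The diet change of dmondo differed between knockdown and wild type in the test of the difference itself: the interaction was -0.73 ± 0.13 (limma, adjusted p = 0.00045), in a comparison in which 51.8% of all tested genes passed. It was -0.68 ± 0.15 among the shared-barcode libraries alone (limma, adjusted p = 0.0051) and 0.12 ± 0.17 with the length trend removed (limma, adjusted p = 0.59).

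sugarbabe in wild-type high-sugar replicate 4 was 5.56 FPKM, far from the other 5 libraries of its group, which had 1.23 to 2.57 FPKM. In the same library CG13319, whose exons overlap those of sugarbabe, was 3.84 FPKM, second to 4.89 FPKM in replicate 6. The gap to the next library was 0.69 of the range of the group, above the limit of 0.625. By that criterion chance sets apart a highest or lowest library in about 1 in 20 groups of normally distributed values. It was applied to FPKM and not to log2 values, at both ends of both wild-type groups for each of the 4 genes.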

How the results depend on the processing

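Over the comparisons of the 4 genes, leaving aside those that omit 1 library, 198 values under alternatives kept their direction and their side of the threshold, 8 changed sign, and of those that kept it 13 passed only under the alternative and 9 no longer passed; where no cause is given it was not tested. With a pseudocount of 0.1, dmondo on high sugar in the knockdown (-0.67), sugarbabe in knockdown against wild type on the control diet (-2), sugarbabe on high sugar in the knockdown (1.74) and the interaction of cbt (-1.49; -0.79 with 0.5) passed, and the interaction of sugarbabe was 0.36. Quantile normalization gave passes for bigmax in knockdown against wild type on high sugar (0.54), its interaction (0.63) and sugarbabe on high sugar in the knockdown (0.73), lost cbt on high sugar in the knockdown (-0.36) and gave 0.02 for dmondo there. With the length trend removed, bigmax in knockdown against wild type on high sugar was -0.1 and on high sugar in the knockdown 0.27, where cbt was -0.19 and dmondo 0.62, which passed, and the interaction of dmondo was 0.12 and no longer passed. With separate means by group and set, bigmax had an interaction of 0.5 and sugarbabe on the control diet -0.75, both passing, and the interaction of sugarbabe was 0.01. Among shared-barcode libraries alone, with fewer samples, sugarbabe was 0.49 for diet in wild type, -0.75 for knockdown on control food and 0.5 for diet in the knockdown, with an interaction of 0.01, and cbt -0.67 for knockdown on control food and 0.04 for diet in wild type. With no filter the fall of cbt in knockdown against wild type on control food (-0.71) and that on high sugar within the knockdown (-0.55) no longer passed, and for the second equal library totals gave -0.54 and no set term -0.55, neither passing. The exact permutation test gave -0.71 for sugarbabe on the control diet (two-sided p = 0.024, the smallest that 3 against 6 allows). That p is not adjusted over genes and ignores the barcode set, yet the result is among the 13. In the main fit p was 0.033 before adjustment and 0.21 after it (limma). Permutations of 2 against 6 and 2 against 3 libraries cannot go below 0.071 and 0.2 and were left out. A minimum mean of 5 FPKM leaves none of the 4 genes.

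Counts of genes passing were 370 for diet in wild type, 134 for the knockdown on the control diet, 1443 for the knockdown on high sugar, 1436 for diet in the knockdown and 1235 for the interaction. In that order they were 142, 70, 472, 485 and 413 with a minimum of 5. With no filter the last 4 were 242, 3982, 3996 and 3068. For diet in wild type the count was 167 with no set term, 563 with those separate means and 83 in shared-barcode libraries, and for the knockdown on the control diet 239 with those separate means. Equal totals moved the median of all genes to -0.2 for the knockdown on high sugar, -0.16 for diet in the knockdown and -0.11 for the interaction, and no set term to 0.11 for the knockdown on the control diet.

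Replicates with the same number were not seen to deviate together (r of -0.24 to 0.223, and 2 of 13 matched their own number best). These deviations are from means of few libraries, so whether such replicates share more than a number was not settled. With a replicate block no call of the 4 genes was lost or gained, and the counts were 247, 91, 1344, 1341 and 1118.

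Leaving out each library in turn, the ranges of values whose call or sign moved were, for dmondo, 0.41 to 0.52 for diet in the shared-barcode set. For bigmax they were 0.45 to 0.66 for diet in the knockdown, 0.3 to 0.51 for the interaction and -0.01 to 0.14 for diet in the shared-barcode set. For sugarbabe they were -0.65 to -0.41 for the knockdown on the control diet, -1.09 to -0.81 for it on high sugar, 0.37 to 0.63 for diet in the knockdown and 0.48 to 0.95 for own minus shared barcode set. For cbt they were -0.12 to 0.05 for diet in wild type, -0.8 to -0.64 for the knockdown on the control diet, -0.61 to -0.46 for diet in the knockdown and -0.6 to -0.42 for the interaction. Its diet change in wild type was -0.3 to 0.07 in the own-barcode set and -0.13 to 0.24 in the shared-barcode set, with a difference of -0.35 to 0.04. The count for the knockdown on the control diet was 84 to 145, with 84 without knockdown control-diet replicate 3.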
